A study of Homo sapiens with 4 samples.

Results

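Vimentin (VIM), N-cadherin (CDH2) and 8 transcription factors linked to epithelial-to-mesenchymal transition (EMT) were followed in A2780s cells, an established human epithelial ovarian cancer (EOC) line. The transcription factors were SNAI1, SNAI2, TWIST1, TWIST2, ZEB1, ZEB2, TCF4 and TCF3. Every probe that carried one of these 10 gene names on all 4 arrays was taken, which gave 18 of 41000 probes and 10 of 29123 gene names. All 18 probes passed the filter on dim probes, and none of their spots was saturated or marked as an outlier.

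EMT is the program by which epithelial cells loosen their junctions and take on a migratory, fibroblast-like form. SNAI and ZEB proteins are zinc finger repressors that bind E-box letters in DNA and silence CDH1, the E-cadherin gene. TWIST proteins and the E proteins TCF4 (also called E2-2) and TCF3 (E2A) are basic helix-loop-helix factors that pair with each other, while VIM and CDH2 are markers of the mesenchymal state. In ovarian cancer, cells often carry epithelial and mesenchymal markers side by side.

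The design set 2 clones with GALNT3 KO and 2 with GALNT3/T6 KO against mock-transfected Ctrl A2780s cells. GALNT3 was disrupted by CRISPR/Cas9, and the double KO clones came from GALNT3 KO clones that also received lentiviral shRNA against GALNT6, so the effects of GALNT6 suppression, transduction and selection cannot be told apart. The RNA of each clone (Cy5) was hybridized together with Ctrl RNA (Cy3) on an array of its own, with no dye swap in the labels, and all 4 arrays lay on 1 slide. As no array held Ctrl in both channels, the tests against Ctrl do not include the spread of Ctrl itself. By these labels a dye effect on a probe cannot be told apart from its ratio of KO over Ctrl. Each value is the log2 of the KO signal over the Ctrl signal, where 1 is a doubling. A probe is called when its p from limma, adjusted by Benjamini-Hochberg over all 38247 probes tested, is 0.05 or less.

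The targeted genes were read on every array. On the GALNT3 KO arrays the GALNT3 probe was dim (not well above background) in both channels. It stood at 4.80 and 5.08 on the other 2 arrays, with the KO channel above Ctrl, which goes against the label. The Ctrl channel of GALNT3 was itself brighter on these 2 arrays, by a fitted 1.40 (adjusted p = 0.0448) over the dim level of the others. These are therefore called the GALNT3/T6 KO-labelled arrays, and each direction given for them rests on that label. With the sign of these 2 arrays turned, 12 of the 18 probes described here would be higher and 5 lower than Ctrl. The groups would then differ in 17 probes (51.7% of all probes), and CDH2, which stood alike in both, would differ by -5.08 (adjusted p = 0.000537). Over all probes tested the ratios of arrays of different groups correlated at 0.20 to 0.32 as labelled. Read as labelled, the Ctrl channel differed between the groups for 121 probes, or 0.316% of those tested. All 121 were brighter on the GALNT3/T6 KO-labelled arrays. The KO channel was called higher for 3259 probes and lower for 2983 on the GALNT3/T6 KO-labelled arrays. Whether labels or channels were exchanged was not tested. GALNT6 stood at -0.46 and -0.38 in GALNT3 KO (mean -0.42, adjusted p = 0.0440) and at -0.66 and -0.69 on the GALNT3/T6 KO-labelled arrays (mean -0.67, adjusted p = 0.00312).

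The genes described here were chosen with earlier results of these data known, and several probes read the same gene. The shares called are thus no test of an excess over all probes. Of the 18 probes, 5 were called in GALNT3 KO, or 27.8% against 11.5% of all probes tested. Of these, 3 were higher and 2 lower than Ctrl, where 4.37% of all probes were higher and 7.15% lower. On the GALNT3/T6 KO-labelled arrays, 17 were called, or 94.4% against 48.9% of all probes. There 5 were higher and 12 lower, where 24.1% of all probes were higher and 24.8% lower. The groups differed in 13 probes, or 72.2% against 25.3% of all probes, 4 with a higher and 9 with a lower ratio on the GALNT3/T6 KO-labelled arrays (12.5% and 12.8% of all probes). By the study's criterion, an unadjusted p of at most 0.05 and a 1.5-fold change, 8 probes changed in GALNT3 KO (9.74% of all probes) and 16 on the GALNT3/T6 KO-labelled arrays (32.9%), and 14 differed between the groups (28.0%). The median log2 ratio of the 18 probes was 0.12 in GALNT3 KO and -1.41 on the GALNT3/T6 KO-labelled arrays, while all probes tested had a median of 0.00 and 0.01. One of these probes, the ZEB2 probe A_23_P407203, passed the filter only through the GALNT3/T6 KO-labelled arrays, where its KO channel was high, so its calls are no evidence. Without it 16 of 17 were called on those arrays (94.1%), 4 higher and 12 lower, and 12 of 17 differed between the groups (70.6%). Within each of the 3 families SNAI, TWIST and ZEB, one gene rose and the other fell on the GALNT3/T6 KO-labelled arrays. For ZEB this was weaker, as ZEB1 fell only 1.36-fold, under the study's 1.5-fold minimum. ZEB2 rose by the probe A_23_P142560, while its probe A_24_P367454 was not called (mean 0.23, adjusted p = 0.0902). Fits with 1 array left out cannot show whether calls depended on single arrays, as without a GALNT3 KO array calls fell over all probes too. All 5 probes called in GALNT3 KO had the same sign on both of its arrays. With 1 array left out, the lone array of its group is assumed to vary like those of the other group, which alone give the spread. Without either GALNT3 KO array 0 of the 18 probes and 0 of all probes were called by limma, although 6510 (without replicate 1) and 4417 (without replicate 2) had an unadjusted p of at most 0.05, and without either of the other 2 arrays 12 of the 18 were called. The 13 differences between the groups became 7 without GALNT3 KO replicate 1 and 8 without replicate 2. Those lost in both cases were the 2 of VIM, with adjusted p between 0.0578 and 0.0708, the second SNAI2 probe, TWIST2 and the ZEB2 probe A_23_P407203, and without replicate 1 the TCF4 probe A_24_P918527 was lost too.

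**Figure D1:**
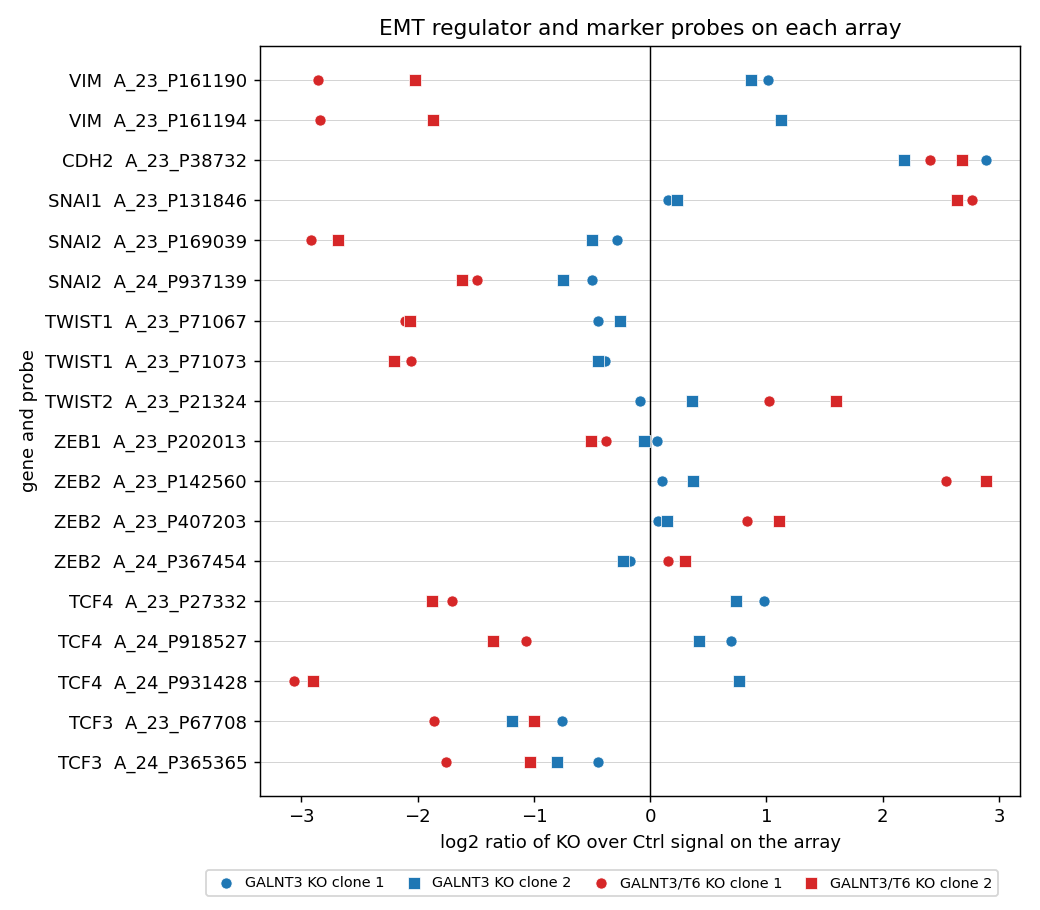
Log2 ratio of KO over Ctrl (horizontal axis) for each of the 18 probes (vertical axis) on each of the 4 arrays; each point is 1 array, and no mean is drawn. Both GALNT3/T6 KO points lie below 0 for VIM, SNAI2, TWIST1, ZEB1, TCF4 and TCF3, and above 1 for CDH2, SNAI1, TWIST2 and the ZEB2 probe A_23_P142560.

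VIM encodes the intermediate filament of mesenchymal cells and was read by 2 probes in its coding region, which are shown because both stood on opposite sides of Ctrl in the groups. Probe A_23_P161190 lies between chr10:17278347-17279256 of hg19 on the + strand and crosses an exon junction, and A_23_P161194 lies at chr10:17277185-17277244.
A_23_P161190: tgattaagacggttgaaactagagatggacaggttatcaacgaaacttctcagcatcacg
A_23_P161194: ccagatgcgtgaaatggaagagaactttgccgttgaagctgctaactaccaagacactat
In GALNT3 KO the first probe stood at 1.02 and 0.87, and on the GALNT3/T6 KO-labelled arrays at -2.86 and -2.02. The second stood at 1.11 and 1.12 in GALNT3 KO, and at -2.84 and -1.87 on the GALNT3/T6 KO-labelled arrays. Both GALNT3 KO clones were above Ctrl and both GALNT3/T6 KO clones below it, with no overlap on either probe. The means of 0.94 (SE 0.21, adjusted p = 0.0545) and 1.12 (SE 0.24, adjusted p = 0.0501) in GALNT3 KO missed the threshold, which they passed with median centring (1.41 and 1.59) and missed by more with Agilent's own log ratio (0.335 and 0.70). VIM fell on the GALNT3/T6 KO-labelled arrays, 5.43-fold (adjusted p = 0.00109) and 5.12-fold (adjusted p = 0.00169). The difference between the groups was -3.38 (SE 0.30, adjusted p = 0.00244) and -3.48 (SE 0.33, adjusted p = 0.00307).

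Both channels moved for VIM. The KO signal of A_23_P161190, on the log2 scale after normalization, was 18.49 and 18.38 on the GALNT3 KO arrays and 16.03 and 16.91 on the GALNT3/T6 KO-labelled arrays. Its Ctrl signal was 17.48 and 17.51 on the GALNT3 KO arrays, against 18.89 and 18.93 on the others, although the labels give mock-transfected Ctrl on every array. For A_23_P161194 the KO signal was 18.39 and 18.69 against 16.27 and 17.24, and the Ctrl signal was 17.28 and 17.57 against 19.11 and 19.11. The Ctrl channel thus differed by 1.41 (adjusted p = 0.0416) and 1.68 (adjusted p = 0.0434). Such a difference was called for 121 probes, or 0.316% of those tested, all of them brighter on the GALNT3/T6 KO-labelled arrays. Among the 18 probes it was called only for these 2. VIM is bright enough that every one of its spots was read from the low-gain scan. Of the 2487 probes whose Ctrl spot came from that scan on all 4 arrays, the 2 VIM probes were also the only ones with a called Ctrl difference, and the median difference over the 2487 was 0.02. The uncorrected Ctrl intensity of A_23_P161190 was 166000 and 200900 on the GALNT3 KO arrays and 497800 and 418900 on the others. Set channel against channel, VIM in KO cells was still lower on the GALNT3/T6 KO-labelled arrays, by -1.97 (adjusted p = 0.00311) and -1.79 (adjusted p = 0.00712). The rest of each difference of ratios lay in the Ctrl channel. Why the Ctrl signal differed was not tested.

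**Figure D2:**
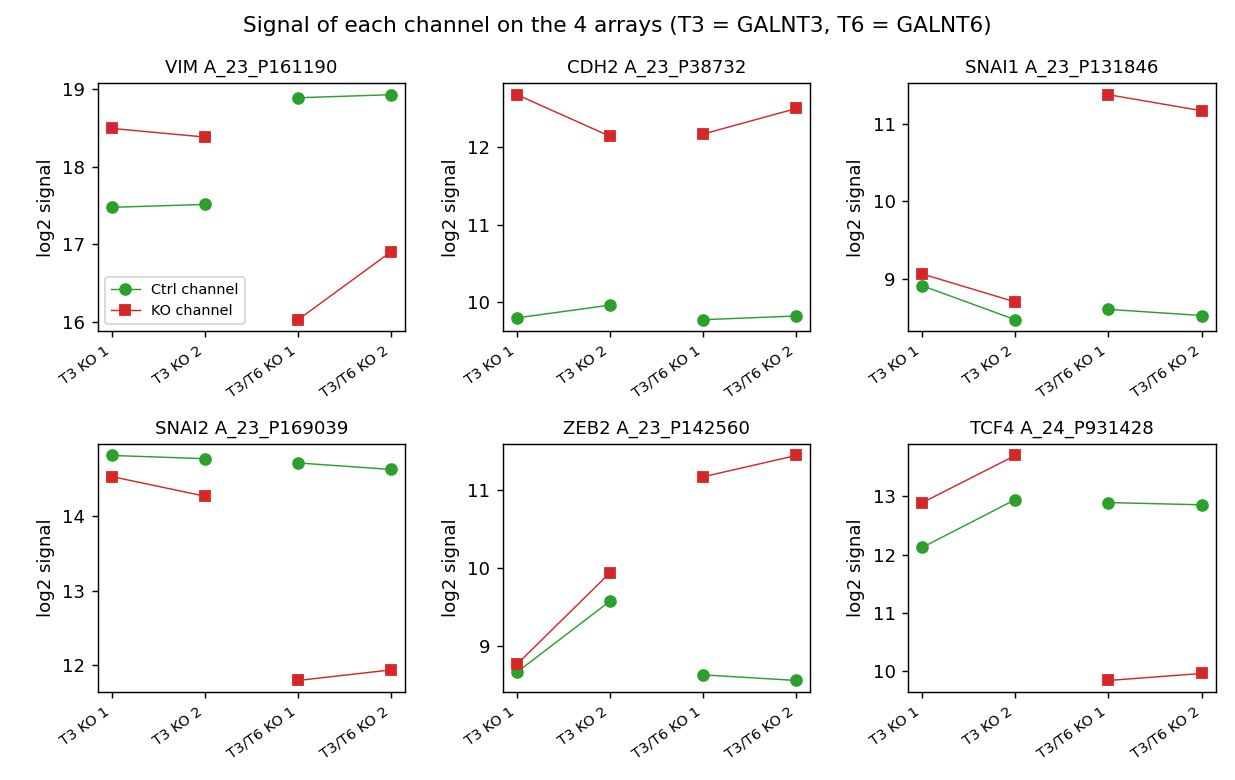
Log2 signal (vertical axis, its own scale in each panel) of the Ctrl channel (green) and the KO channel (red) on the 4 arrays for 1 probe each of 6 genes; lines join the 2 arrays of a group. The Ctrl signal of VIM stood at 17.48 and 17.51 on the GALNT3 KO arrays and at 18.89 and 18.93 on the GALNT3/T6 KO-labelled arrays, while for SNAI1, SNAI2 and CDH2 the KO channel moved over a wider range than the Ctrl channel.

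CDH2, the cadherin that marks mesenchymal cells and neurons, was read by A_23_P38732 at chr18:25532081-25532140 of hg19. It stood at 2.89 and 2.18 in GALNT3 KO and at 2.40 and 2.68 on the GALNT3/T6 KO-labelled arrays. All 4 arrays were well above Ctrl, and the values of the groups overlapped. CDH2 rose 5.80-fold in GALNT3 KO (mean 2.54, SE 0.19, adjusted p = 0.0109) and 5.83-fold on the GALNT3/T6 KO-labelled arrays (mean 2.54, adjusted p = 0.000734). It was the only one of the 10 genes whose every probe was called higher in GALNT3 KO. The difference between the groups was 0.01, with a 95% interval from -0.69 to 0.71 (adjusted p = 0.990), and its sign turned with Agilent's own log ratio (-0.10). The Ctrl signal lay between 9.77 and 9.96 on all arrays, and the KO signal between 12.14 and 12.68. VIM and CDH2 thus went in opposite directions on the GALNT3/T6 KO-labelled arrays.

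SNAI1, the Snail repressor, was read by A_23_P131846 at chr20:48605170-48605229. It stood at 0.15 and 0.23 in GALNT3 KO and at 2.77 and 2.64 on the GALNT3/T6 KO-labelled arrays. The second group lay far above the first, and the arrays within a group were close. SNAI1 rose 6.52-fold on the GALNT3/T6 KO-labelled arrays (mean 2.70, SE 0.09, adjusted p = 0.000102), while the mean in GALNT3 KO was 0.19 (adjusted p = 0.189). The difference between the groups was 2.51 (SE 0.12, adjusted p = 0.000590). The Ctrl signal was 8.91 and 8.48 against 8.61 and 8.53, so it overlapped between the groups. The KO signal was 9.07 and 8.70 against 11.38 and 11.17.

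SNAI2, which encodes Slug, moved the other way. Probe A_23_P169039, at chr8:49830710-49830769 of hg19, stood at -0.28 and -0.50 in GALNT3 KO and at -2.92 and -2.69 on the GALNT3/T6 KO-labelled arrays. The mean in GALNT3 KO of -0.39 missed the threshold (adjusted p = 0.0786). SNAI2 fell 6.97-fold on the GALNT3/T6 KO-labelled arrays by this probe (mean -2.80, SE 0.11, adjusted p = 0.000145). The second probe, A_24_P937139, which was designed on another transcript record and has no position in the files, stood at -0.50 and -0.75 in GALNT3 KO and at -1.49 and -1.62 on the GALNT3/T6 KO-labelled arrays. It was called lower in GALNT3 KO too (mean -0.63, SE 0.10, adjusted p = 0.0344, against -0.55 and an adjusted p of 0.124 with Agilent's own log ratio) and fell 2.93-fold on the GALNT3/T6 KO-labelled arrays (adjusted p = 0.000509). The KO signal of the first probe was 14.53 and 14.27 in GALNT3 KO and 11.80 and 11.94 on the GALNT3/T6 KO-labelled arrays, with Ctrl between 14.63 and 14.81. That of the second was 8.16 and 7.87 against 7.03 and 6.997, with Ctrl between 8.52 and 8.66. Both probes thus ranked the groups alike, with differences of -2.41 (adjusted p = 0.00104) and -0.93 (adjusted p = 0.0116), but of unequal size. The longest stretch of identical bases between the SNAI1 probe and either SNAI2 probe was 7 bases.

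TWIST1, a basic helix-loop-helix factor of mesoderm, was read by A_23_P71067 at chr7:19155500-19155559 and A_23_P71073 at chr7:19155645-19155704. The first stood at -0.45 and -0.26 in GALNT3 KO and at -2.11 and -2.07 on the GALNT3/T6 KO-labelled arrays. The second stood at -0.39 and -0.45, and at -2.06 and -2.20. The probes of TWIST1 nearly coincided and the groups did not overlap. TWIST1 fell 4.26-fold (mean -2.09, SE 0.09, adjusted p = 0.000189) and 4.38-fold (mean -2.13, SE 0.09, adjusted p = 0.000164) on the GALNT3/T6 KO-labelled arrays. In GALNT3 KO the second probe was called (mean -0.42, adjusted p = 0.0489), at less than the 1.5-fold minimum of the study's criterion, and the first was not (mean -0.36, adjusted p = 0.0692). The groups differed by -1.73 (adjusted p = 0.00154) and -1.71 (adjusted p = 0.00142). The KO signal of the first probe was 13.57 and 13.93 against 11.99 and 11.99, with Ctrl between 14.02 and 14.20, and that of the second 10.27 and 9.76 against 8.10 and 7.97, with Ctrl between 10.16 and 10.66. TWIST2, the second member of the family, was read by A_23_P21324 at chr2:239832044-239832103. It stood at -0.09 and 0.36 in GALNT3 KO and at 1.02 and 1.60 on the GALNT3/T6 KO-labelled arrays. Its values spread more within a group than those of TWIST1, without overlap between groups. TWIST2 rose 2.48-fold on the GALNT3/T6 KO-labelled arrays (mean 1.31, SE 0.19, adjusted p = 0.00485), and the groups differed by 1.18 (SE 0.26, adjusted p = 0.0331). Its mean in GALNT3 KO was 0.13 (adjusted p = 0.630), and without replicate 2 it was -0.09. Its Ctrl signal was 9.23 on the first GALNT3 KO array and between 10.15 and 10.35 on the other 3, and its KO signal was 9.14 and 10.50 against 11.37 and 11.81. The difference of TWIST2 was not called with median centring either (1.09, adjusted p = 0.0783).

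ZEB1 and ZEB2 are large zinc finger repressors of CDH1. ZEB1 was read in its coding region by A_23_P202013 at chr10:31812939-31812998 of hg19. It stood at 0.06 and -0.05 in GALNT3 KO and at -0.38 and -0.51 on the GALNT3/T6 KO-labelled arrays. ZEB1 fell 1.36-fold on the latter (mean -0.44, SE 0.09, adjusted p = 0.0145), the smallest called change among the 18 probes there, and it lay under the study's 1.5-fold minimum. In GALNT3 KO its mean was 0.00 (adjusted p = 0.988). The difference between the groups of -0.44 missed the threshold (adjusted p = 0.0645, unadjusted 95% interval from -0.77 to -0.12). The KO signal was 9.33 and 8.84 in GALNT3 KO and 8.497 and 8.25 on the GALNT3/T6 KO-labelled arrays, and the Ctrl signal 9.27 and 8.90 against 8.87 and 8.76. The fall of ZEB1 was not called without either GALNT3 KO array.

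ZEB2 gave a different answer by probe. A_23_P142560, at chr2:145146261-145146320 in the messenger RNA, stood at 0.10 and 0.36 in GALNT3 KO and at 2.54 and 2.89 on the GALNT3/T6 KO-labelled arrays. By this probe ZEB2 rose 6.56-fold (mean 2.71, SE 0.13, adjusted p = 0.000224), and the groups differed by 2.48 (adjusted p = 0.00144). Its KO signal was 8.76 and 9.94 against 11.16 and 11.44, and its Ctrl signal 8.66 and 9.57 against 8.62 and 8.55. The other 2 probes were designed on a non-coding transcript record of the gene, at chr2:145269454-145269513 and chr2:145270815-145270874 on the - strand. They are shown because their ratios were smaller than that of the messenger RNA probe. Their signals were also lower, and the part of signal, probe and transcript in the difference was not tested.
A_23_P407203: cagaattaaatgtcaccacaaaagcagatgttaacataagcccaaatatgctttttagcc
A_24_P367454: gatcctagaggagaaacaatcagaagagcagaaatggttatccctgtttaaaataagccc
A_23_P407203 was dim in both channels on the GALNT3 KO arrays, and in the Ctrl channel on the GALNT3/T6 KO-labelled arrays, where KO was at least 1.65-fold above Ctrl (fitted mean 0.97). Its KO signal was 6.99 and 6.55 against 7.18 and 7.45, with Ctrl between 6.34 and 6.92. A_24_P367454 stood at -0.18 and -0.23 in GALNT3 KO and at 0.15 and 0.30 on the GALNT3/T6 KO-labelled arrays. Its means of -0.20 (adjusted p = 0.172) and 0.23 (adjusted p = 0.0902) were the values of the only one of the 18 probes called in neither group. Its difference between groups was 0.43 (adjusted p = 0.0678, unadjusted 95% interval from 0.11 to 0.75). Its KO signal was 7.96 and 7.49 against 7.87 and 7.95, with Ctrl between 7.65 and 8.14.

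The promoters of the members were searched for E-box letters, in the 250 bases before each RefSeq start of GRCh38.p14. SNAI and ZEB proteins bind CACCTG, or CAGGTG on the other strand. The wider motif CANNTG, which contains both and reads alike on both strands, is the general E-box. RefSeq promoters were at hand for 7 of the 10 genes (VIM, CDH2, TWIST2, ZEB1, ZEB2, TCF4 and TCF3), 23 windows in all. The narrow motif was in 2 of the 23, both of ZEB1, against 17.5% of 35116 promoters in the same table. The wide motif was in 11 of the 23, in CDH2, ZEB1, ZEB2 and TCF4, against 61.8% of all promoters. The third of 7 ZEB1 windows, at chr10:31318966-31319215 on the + strand, held both orientations of the narrow motif, and the ZEB2 window, at chr2:144520120-144520369 on the - strand, held 1 wide match. Of the SNAI, TWIST and ZEB families, only ZEB had windows for both members. These windows are shown with each match to CANNTG in capitals.
ZEB1: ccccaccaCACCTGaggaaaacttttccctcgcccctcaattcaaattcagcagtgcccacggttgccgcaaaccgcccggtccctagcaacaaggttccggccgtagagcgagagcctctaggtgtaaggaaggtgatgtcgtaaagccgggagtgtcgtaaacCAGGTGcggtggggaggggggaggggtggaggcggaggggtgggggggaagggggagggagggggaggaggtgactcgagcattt
ZEB2: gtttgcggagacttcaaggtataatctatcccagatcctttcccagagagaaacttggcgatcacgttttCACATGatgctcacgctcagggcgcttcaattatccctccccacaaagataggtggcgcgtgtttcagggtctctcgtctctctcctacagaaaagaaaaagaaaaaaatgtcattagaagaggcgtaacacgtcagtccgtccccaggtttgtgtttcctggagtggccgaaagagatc
In the ZEB1 window the matches begin 242 and 85 bases before the start, and in the ZEB2 window 180 bases before it. No binding was measured, and a match describes the letters alone.

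TCF4 encodes the E protein E2-2 and was read by 3 probes, which all stood above Ctrl in GALNT3 KO and below it on the GALNT3/T6 KO-labelled arrays. A_23_P27332, between chr18:52895237-52895486 of hg19, stood at 0.98 and 0.74 in GALNT3 KO and at -1.70 and -1.87 on the GALNT3/T6 KO-labelled arrays. A_24_P931428, at chr18:52891716-52891775, stood at 0.77 and 0.76, and at -3.06 and -2.90. Every GALNT3 KO value was above 0 and every GALNT3/T6 KO value below it. TCF4 was called higher in GALNT3 KO by these 2 probes, 1.81-fold (adjusted p = 0.0240) and 1.70-fold (adjusted p = 0.0223), and both calls were lost with Agilent's own log ratio (means of 0.68 and 0.65). The call of A_24_P931428 was lost with median centring too (mean 0.48). It fell 3.46-fold (adjusted p = 0.000379) and 7.90-fold (adjusted p = 9.49e-05) on the GALNT3/T6 KO-labelled arrays. The third probe, A_24_P918527, crosses an exon junction in the first part of the gene, between chr18:53018188-53068823 on the - strand, and is shown as it reads another stretch of the transcript than the others.
A_24_P918527: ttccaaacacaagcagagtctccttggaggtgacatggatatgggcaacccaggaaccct
It stood at 0.70 and 0.42 in GALNT3 KO (mean 0.56, adjusted p = 0.0518) and at -1.06 and -1.35 on the GALNT3/T6 KO-labelled arrays, a 2.31-fold fall (adjusted p = 0.00169). The 3 differences between the groups were -2.65 (SE 0.15, adjusted p = 0.000772), -3.75 (SE 0.12, adjusted p = 0.000377) and -1.77 (SE 0.17, adjusted p = 0.00312). The KO signals, in the same order of probes, were 16.09 and 15.84 against 13.22 and 12.98, 12.89 and 13.71 against 9.83 and 9.95, and 10.36 and 9.58 against 8.05 and 7.84. The Ctrl signals lay between 14.86 and 15.12, 12.12 and 12.95, and 9.12 and 9.66. The KO channels alone differed by -2.86, -3.41 and -2.02 (adjusted p = 9.2e-05, 7.33e-05 and 0.00223).

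TCF3 encodes the E proteins E12 and E47 and was read by A_23_P67708 at chr19:1611235-1611294 and A_24_P365365 at chr19:1609332-1609391. The first stood at -0.76 and -1.19 in GALNT3 KO and at -1.86 and -0.998 on the GALNT3/T6 KO-labelled arrays. The second stood at -0.45 and -0.80, and at -1.75 and -1.03. All values were below Ctrl, and on both probes the first GALNT3/T6 KO clone lay lowest. On the first probe the groups overlapped. TCF3 fell 2.69-fold (mean -1.43, SE 0.23, adjusted p = 0.00761) and 2.63-fold (mean -1.39, SE 0.20, adjusted p = 0.00506) on the GALNT3/T6 KO-labelled arrays. In GALNT3 KO the means of -0.98 (adjusted p = 0.0617) and -0.62 (adjusted p = 0.104) missed the threshold. The groups differed by -0.45 (adjusted p = 0.424, 95% interval from -1.32 to 0.41) and -0.77 (adjusted p = 0.123, unadjusted interval from -1.51 to -0.03). Without GALNT3/T6 KO replicate 2 they were -0.88 (adjusted p = 0.00715) and -1.13 (adjusted p = 0.00118), where the spread came from the 2 GALNT3 KO arrays alone and left out that between the GALNT3/T6 KO clones. The KO signals were 14.34 and 13.88 against 13.15 and 14.10 for the first probe, with Ctrl between 15.01 and 15.10, and 14.94 and 14.48 against 13.57 and 14.40 for the second, with Ctrl between 15.28 and 15.43. The SD of the 2 GALNT3/T6 KO arrays was 0.61 and 0.51 for TCF3 and 0.59 and 0.69 for VIM, against a median of 0.13 over all probes tested.

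**Figure D3:**
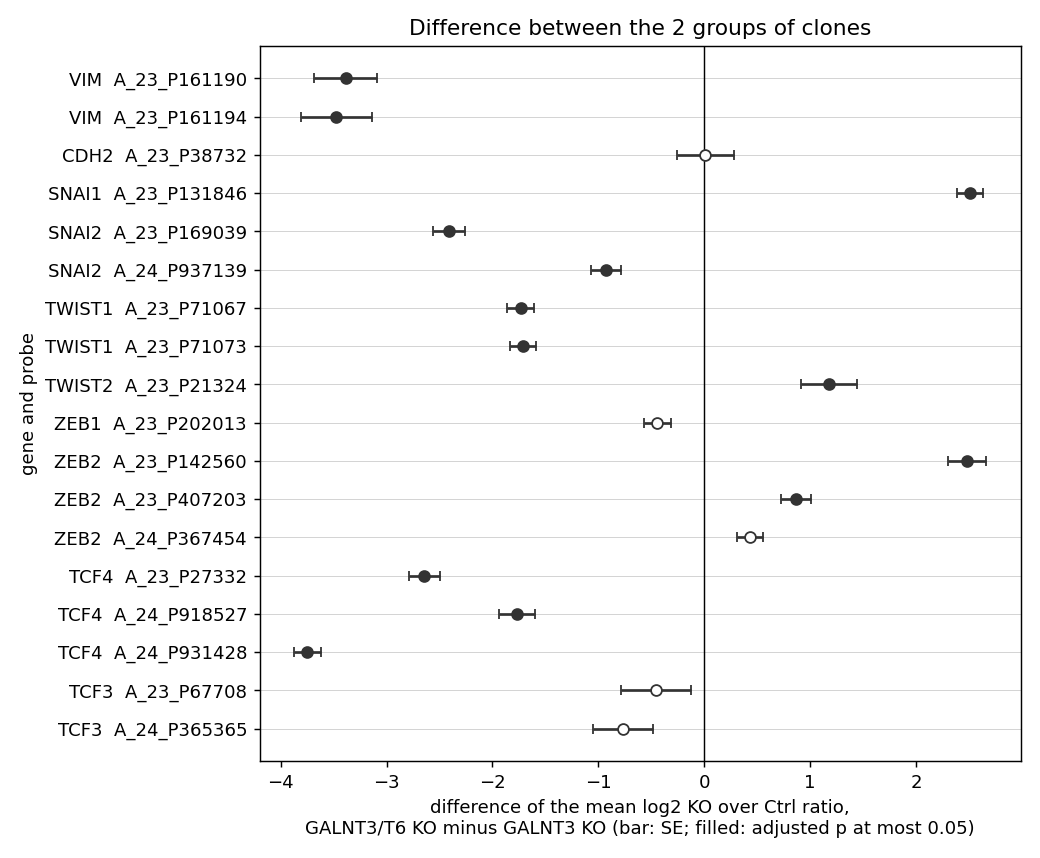
Difference of the mean log2 KO over Ctrl ratio between the groups, GALNT3/T6 KO minus GALNT3 KO (horizontal axis), for each of the 18 probes (vertical axis); bars are the SE from limma and filled points have an adjusted p of at most 0.05. SNAI1, TWIST2 and 2 of 3 ZEB2 probes lie to the right, VIM, SNAI2, TWIST1 and TCF4 to the left, and CDH2, ZEB1, TCF3 and the third ZEB2 probe are open.

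CDH1 encodes E-cadherin, the best known target of these repressors. It stood at -0.10 and -0.20 in GALNT3 KO (mean -0.15, adjusted p = 0.475) and at 0.99 and 0.51 on the GALNT3/T6 KO-labelled arrays. It rose 1.69-fold on the latter (mean 0.75, SE 0.14, adjusted p = 0.0107), on the same arrays where SNAI1 and ZEB2 were higher and SNAI2, TWIST1 and ZEB1 lower. The groups differed by 0.90 (SE 0.19, adjusted p = 0.0303). The signals were low, though well above background on every array. Ctrl lay between 7.35 and 7.50, and KO was 7.37 and 7.31 in GALNT3 KO against 8.46 and 7.86 on the GALNT3/T6 KO-labelled arrays.

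The partners of the helix-loop-helix members were read through TCF12, the third E protein, and ID1 to ID4, which bind E proteins and keep them off DNA. All 5 were called lower than Ctrl on the GALNT3/T6 KO-labelled arrays, where 23.2% of all genes were lower when each was read through its brightest probe, with a median log2 ratio of -1.75 against 0.01 over all probes. ID4 fell the most, standing at -1.26 and -1.50 in GALNT3 KO (mean -1.38, adjusted p = 0.0144) and at -4.40 and -4.72 on the GALNT3/T6 KO-labelled arrays (mean -4.56, adjusted p = 8.98e-05). ID3 fell on the latter (mean -1.97, adjusted p = 0.000232). TCF12 fell in both groups, with means of -1.07 (adjusted p = 0.0246) and -1.75 (adjusted p = 0.000773). ID2 was called higher in GALNT3 KO (mean 0.96, adjusted p = 0.0217), at -1.03 and -1.30 on the other arrays. Of the 5 genes, 2 were called lower in GALNT3 KO, where 4.86% of all genes were higher and 6.65% lower. With TCF4 and TCF3, the 3 E proteins and 4 ID genes measured were thus lower than Ctrl on the GALNT3/T6 KO-labelled arrays, as was TWIST1, while TWIST2 was higher.

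Of 16 other EMT transcription factors, 2 were called higher and none lower in GALNT3 KO, PRRX1 (mean 0.42) and WWTR1 (mean 0.73), or 12.5% against 11.5% of all genes read through their brightest probe (4.86% higher and 6.65% lower). On the GALNT3/T6 KO-labelled arrays 5 were higher and 6 lower, or 68.8% against 48.1%. TBX3 (mean 2.01), YAP1 (1.29) and FOXC1 (1.26) rose the most. HMGA2 (-3.33) fell the most, and SOX4 (-1.77) was also among those that fell. The list had a median of -0.04.

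In the TGF-beta pathway, which induces SNAI, ZEB and TWIST genes in many epithelia, 0 of 12 genes were called higher and 2 lower in GALNT3 KO, TGFB3 (mean -0.85) and TGFBR1 (mean -0.40). These were 16.7% of the list, against 11.5% of all genes read through their brightest probe. On the GALNT3/T6 KO-labelled arrays 4 rose and 5 fell, or 75.0% against 48.1% of all genes (24.9% higher and 23.2% lower). The ligand TGFB2 stood at -1.16 and -0.76 in GALNT3 KO and at 2.73 and 4.06 on the GALNT3/T6 KO-labelled arrays (mean 3.40, adjusted p = 0.00152), and the ligands TGFB3 (-2.45) and TGFB1 (-1.16) fell. The receptor TGFBR2 (3.48) and the transducer SMAD3 (2.97) rose, and SKIL (-1.93), an inhibitor of SMAD proteins, fell.

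Among 21 epithelial adhesion and splicing genes, 1 was called higher and 2 lower in GALNT3 KO, while 10 rose and 0 fell on the GALNT3/T6 KO-labelled arrays, with a median of 0.36. The 10 were 47.6% of the list, near the 48.1% of all genes called there, with 24.9% of all genes higher and 23.2% lower. In GALNT3 KO 14.3% of the list was called, against 11.5% of all genes. By the label the keratin genes KRT18 (mean 5.68), KRT19 (4.81) and KRT8 (2.83) had the highest ratios on the GALNT3/T6 KO-labelled arrays. These would be the lowest with the sign turned. Their Ctrl signal was also brighter on these arrays, at 13.37 and 12.56 against 10.61 and 10.35 in GALNT3 KO for KRT18, 14.37 and 13.18 against 11.44 and 11.14 for KRT19, and 13.55 and 13.95 against 10.76 and 10.94 for KRT8. The Ctrl difference was called for KRT8 (2.90, adjusted p = 0.0181) and not for KRT18 (2.49, adjusted p = 0.0926) or KRT19 (2.48, adjusted p = 0.231). In GALNT3 KO OCLN, which encodes the tight junction protein occludin, fell (mean -1.67, adjusted p = 0.0107), as did JUP (-0.53), while DSP (0.53) rose. Among 29 mesenchymal matrix and cytoskeletal genes, 2 were higher and 2 lower in GALNT3 KO, or 13.8% against 11.5% of all genes. On the GALNT3/T6 KO-labelled arrays 12 were higher and 8 lower, or 69.0% against 48.1%. CD44 (mean 5.46), LOX (3.76) and FN1 (3.69), the gene of fibronectin, rose there, and CNN1 (-3.81), ACTA2 (-2.22) and S100A4 (-1.93) fell. The Ctrl signal of CD44 was also brighter on these arrays, at 9.86 and 10.3 against 7.98 and 7.75 (difference 2.21, adjusted p = 0.0430). For FN1 it was 7.86 and 9.39 against 6.53 and 6.39 (2.17, adjusted p = 0.595), and for LOX the difference was 0.86 (adjusted p = 0.535). For CNN1, ACTA2 and S100A4 it was -0.10, -0.0039 and -0.0176. FN1 was dim in both channels on the GALNT3 KO arrays. TIMP1 (mean 1.44), a metalloproteinase inhibitor, and COL1A2 (0.62) rose in GALNT3 KO, and CNN1 (-1.80) and LUM (-1.07) fell.

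**Figure D4:**
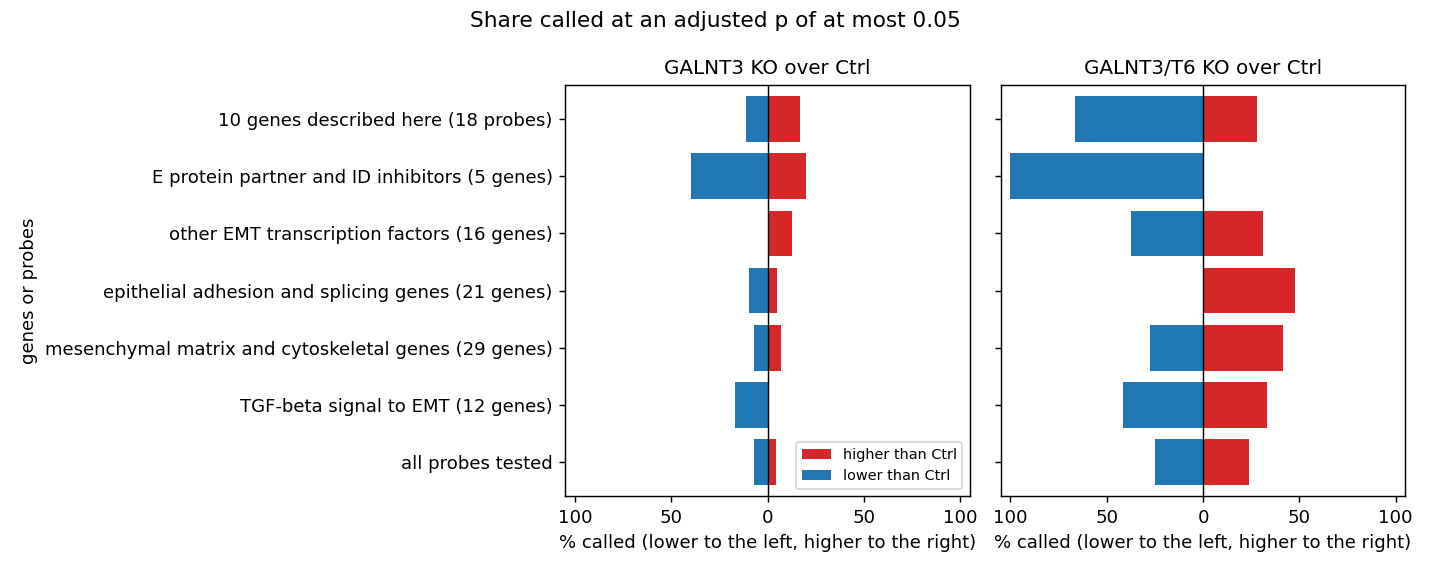
Share of probes or genes called higher (red, to the right) or lower (blue, to the left) than Ctrl in GALNT3 KO (left panel) and GALNT3/T6 KO (right panel), in percent, for the 10 genes described here, 5 related lists and all probes tested. On the GALNT3/T6 KO-labelled arrays 12 of 18 probes and all 5 E protein partner and ID genes were lower, 10 of 21 epithelial genes were higher with none lower, and the other lists were called in both directions.

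Markers of cell types were read beside these results. Of all genes read through their brightest probe, 48.1% were called on the GALNT3/T6 KO-labelled arrays, 24.9% higher and 23.2% lower. In GALNT3 KO 11.5% of all genes were called, 4.86% higher and 6.65% lower. Of 10 ovarian epithelial markers, 8 were higher and 0 lower on the GALNT3/T6 KO-labelled arrays and 0 were called in GALNT3 KO. The summed KO signal of the ovarian epithelial markers, on the log2 scale, lay between 13.61 and 13.83 on the GALNT3 KO arrays. It lay between 19.77 and 19.86 on the GALNT3/T6 KO-labelled arrays, where KRT18 alone read 18.51 to 18.78 and KRT19 18.5 to 18.68. The summed Ctrl signal of this list was 13.51 and 13.30 on the GALNT3 KO arrays and 15.55 and 15.13 on the others. Of 7 fibroblast markers 3 rose and 3 fell on the GALNT3/T6 KO-labelled arrays, and in GALNT3 KO 1 rose and 1 fell. On the former PDGFRB (mean 3.44), COL1A1 (1.98) and THY1 (1.24) were higher and LUM (-1.19), COL3A1 (-0.98) and COL1A2 (-0.32) lower. The Ctrl signal of COL1A1 was also brighter there, at 9.94 and 10.75 against 8.72 and 8.58 (difference 1.69, adjusted p = 0.254). The summed KO signal of the fibroblast markers was 15.54 to 15.72 in GALNT3 KO and 15.59 to 16.22 on the GALNT3/T6 KO-labelled arrays. Of 6 leukocyte markers 2 rose and 1 fell on the GALNT3/T6 KO-labelled arrays, CD68 (mean 1.70), ITGAM (0.49) and CD3E (-0.36), and in GALNT3 KO ITGAM (0.51) rose. The 3 of 6 leukocyte markers called on the GALNT3/T6 KO-labelled arrays were near the share of all genes called there. PTPRC, which defines leukocytes, was called in neither group. Of 4 endothelial markers tested 3 rose, VWF (mean 1.32), KDR (1.21) and TEK (0.49), and in GALNT3 KO KDR (0.56) rose, while PECAM1 was well above background on no array. The summed KO signal of leukocyte markers ran from 12.88 to 12.99 and from 13.03 to 13.14, and that of endothelial markers from 11.61 to 11.84 and from 12.01 to 12.15, in the same order of groups. Each array read a clone of A2780s cells and not a tissue of several cell types. The part of these markers in the members' values was not tested. Fewer cells that express a gene cannot be told apart from less RNA per cell.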

How the data were processed

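Total RNA of 4 A2780s KO clones was measured against Ctrl on 2-colour Agilent human arrays. The authors deposited spot intensities from Agilent Feature Extraction (version 8.5.1.1 in their processing notes and 10.7.3.1 in the file headers), with hg19 probe positions. They also deposited log10 ratios of KO over Ctrl, which gave the alternatives "Agilent's own log ratio" and "series value table".

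Intensities were background-corrected by normexp (offset 50) and normalized by loess within each array, with control and outlier spots at weight 0, in limma 3.58.1 under R 4.3.3. Spots of 1 probe were averaged. Probes well above background in a channel on both arrays of a group were kept, 38247 of 41000. limma (lmFit and eBayes) fitted all 4 arrays with a mean per group, and p-values were adjusted by Benjamini-Hochberg over all probes kept. Channel signals were read after Aquantile scaling. The bound for ZEB2 set the KO mean against the higher of the array floor and the dim signal. Like every ratio against Ctrl, it is open to dye bias. For related lists a gene was read through its brightest probe. The replicates are clones, and 2 arrays a group limit the precision. Between 86.9% and 93.8% of probe spots were well above background. The test was tried on simulated data.

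Named were every member probe, the targeted genes, CDH1 and, per list and comparison with Ctrl, up to 3 called genes with the largest mean ratio in each direction. The members and lists were chosen with earlier results of these data known. Alternatives covered the background, normalization, filter, 1 value a gene, the arrays fitted, a replicate block, the KO channel alone, the study's criterion (unadjusted p at most 0.05 and 1.5-fold) and each array left out. Counts without the dim ZEB2 probe and with the sign of the GALNT3/T6 KO-labelled arrays turned were added after seeing the data. The value of 1 member of the list of other EMT transcription factors is not reported here.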

Additional observations from a re-analysis of the deposited data

Results flagged for a closer look

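The ratio of KO over Ctrl differed between GALNT3/T6 KO and GALNT3 KO, by limma's test of the difference itself, for 13 of the 18 probes, against 25.3% of all probes tested. Differences are log2 values of GALNT3/T6 KO minus GALNT3 KO by sample label. The ratio was lower on the GALNT3/T6 KO-labelled arrays for VIM (-3.38 and -3.48 by its 2 probes), SNAI2 (-2.41 and -0.93), TWIST1 (-1.73 and -1.71) and TCF4 (-2.65, -1.77 and -3.75). It was higher for SNAI1 (2.51), TWIST2 (1.18) and ZEB2 (2.48, and 0.87 by the non-coding probe A_23_P407203). For VIM the direction held in the KO channel alone, at -1.97 and -1.79, with the Ctrl channel 1.41 and 1.68 brighter. A_23_P407203 was dim in both channels on the GALNT3 KO arrays and passed the filter only through the other group, so its difference has no measured level on 1 side and is no evidence, and its KO channels alone differed by 0.55 (adjusted p = 0.301). Without it 12 of 17 probes differed.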

How the results depend on the processing

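On the GALNT3/T6 KO-labelled arrays no direction changed under the alternatives, and 16 or 17 of 18 probes were called with any 1 array left out and 17 with the replicate block. With 1 value a gene all 10 genes were called, by the brightest probe or the mean. The difference between groups was called for 7 of 10 genes by either, and for 7 to 15 probes with 1 array left out (7 without GALNT3 KO replicate 1, 8 without replicate 2). In GALNT3 KO the 5 calls became 2 with Agilent's own log ratio or the series value table, 2 of 10 genes by the brightest probe, 12 with only the arrays of the group, 8 by the study's criterion and 0 to 12 with 1 array left out, 0 without either GALNT3 KO array and 12 without either GALNT3/T6 KO array. The labels do not say that clone numbers pair the arrays, and deviations of same-numbered arrays correlated at -0.22. With the replicate block 0 of 18 probes were called in GALNT3 KO, and with the crossed pairing, chosen after seeing the data, 8. Values that changed sign were all uncalled. TWIST2 in GALNT3 KO ran from -0.089 to 0.355 with 1 array left out. ZEB1 in GALNT3 KO was -0.102 with Agilent's log ratio and with the series table, -0.0118 with median centring and from -0.0543 to 0.0583 with 1 array left out. The CDH2 difference was -0.100 with Agilent's log ratio, -0.0980 with the series table, -0.0741 in the KO channel and from -0.344 to 0.360 with 1 array left out. The causes were not tested.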
